A study of Mus musculus with 14 samples.

Results

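Aebp1 and Pold2, Ctsz and Nelfcd, and Selp and F5 are 3 pairs of mouse genes that lie side by side on the chromosome. They were chosen from readouts of these libraries, because the N6-methyladenosine (m6A) signal listed under Pold2, Nelfcd and F5 departs from the RNA of those genes. RNA, m6A-RIP and their difference in these 6 genes are therefore given as a description without a test. All 6 genes were among the 14837 genes of the input table, and they held 15 of the 18881 rows of the m6A-RIP table. They also held 4 of 19465 Igf2bp3-RIP peaks, under 3 of the genes, and 15 of 21616 Lin28a-RIP peaks, under 2 of them.

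The cells were cultured muscle stem cells (MuSCs) of mouse skeletal muscle. Lin28a+ MuSCs carry the genotype label Lin28a positive, and the study sorted them from Lin28a-CreERT2; LSL-tdTomato mice, in which a tamoxifen-dependent Cre made from the Lin28a gene switches on a red fluorescent protein. Control MuSCs carry the genotype label Control, and neither age nor the number of animals is given in the labels. Input RNA without pull-down, m6A-RIP and Igf2bp3-RIP (RNA pulled down with an antibody to m6A or to Igf2bp3) were sequenced in 2 libraries of each kind of cells. Lin28a-RIP was made in 2 libraries of Lin28a+ MuSCs only. The Lin28a+ input columns are headed as if they were m6A libraries, and both Lin28a+ m6A-RIP columns share a name, so these libraries are called a and b here and carry no replicate number. The labels do not say whether the libraries of a group came from separate cultures or animals, so errors and p-values measure the spread between these libraries, which may be technical.

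Table totals were 4842915 to 6220960 in the input, 21350962 to 31830638 in m6A-RIP, 9215355 to 34142094 in Igf2bp3-RIP and 33908110 to 36610494 in Lin28a-RIP. All 9 satellite cell and myoblast markers were listed in the input, with a summed level of 15162 to 15429 CPM (counts scaled to library size, with TMM factors) in control and 14640 to 14792 CPM in Lin28a+ MuSCs. By edgeR's test 3 of the 9 markers rose in Lin28a+ MuSCs and 4 fell, where 28.1% of all genes rose and 28.7% fell. Myog, of differentiating myoblasts, went from 764 and 773 CPM to 2762 and 2800 CPM, Vcam1 from 16.8 and 18.3 to 3.97 and 5.21, and Chrna1 from 5923 and 5981 to 3111 and 3155. The part of these marker differences in the values of the 6 genes was not tested. Between the libraries of a group, the chi-square per degree of freedom (1 where counting error is the whole spread) came to 4.70 for control and 1.01 for Lin28a+ input over all genes, and to 1.70 and 1.80 over genes of moderate level with whole numbers. Over all features it was 6.02 to 6.14 in m6A-RIP and 99.5 to 99.7 in Igf2bp3-RIP, so the Igf2bp3-RIP libraries of a group differed far more than the others.

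N6-methyladenosine is the most abundant internal mark of mRNA. It is laid down by the Mettl3 and Mettl14 methyltransferase and lies mostly near stop codons and in 3′ untranslated regions. Igf2bp3 is an RNA-binding protein that recognises m6A-marked mRNA, and Lin28a is an RNA-binding protein best known for blocking the maturation of let-7. In an m6A-RIP experiment the pulled-down fragments are mapped to the genome and each peak is given the name of a gene, and a longer or more abundant transcript yields more fragments whatever its methylation. The m6A-RIP signal is for that reason read beside the RNA of the same gene.

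The pairs differ in how they lie. On build GRCm38.p6, Aebp1 spans chr11:5861866-5872248 on the plus strand and Pold2 spans chr11:5872180-5878256 on the minus strand. Their 3′ ends face each other and share 69 bases, chr11:5872180-5872248. Nelfcd spans chr2:174415804-174427505 and Ctsz spans chr2:174427494-174439039 on the minus strand, and these spans share 12 bases, chr2:174427494-174427505. Selp spans chr1:164115264-164150026 and F5 spans chr1:164151835-164220277, both on the plus strand, with 1808 bases between the end of Selp and the start of F5. A long non-coding RNA gene, Gm16548, reaches over the end of Selp and the start of F5. The input, m6A-RIP and Igf2bp3-RIP tables do not say on which strand reads were counted, and without strand the reads of a shared stretch cannot be told apart.

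Aebp1 encodes a secreted, collagen-binding protein of the carboxypeptidase family, and Pold2 encodes the regulatory subunit of DNA polymerase delta, the enzyme of lagging-strand synthesis. In the input, Aebp1 stood at 199 and 198 CPM in the control libraries and at 16.3 and 17.7 CPM in the Lin28a+ libraries. Pold2 stood at 34.8 and 32.2 CPM in the control libraries and at 84.2 and 78.8 CPM in the Lin28a+ libraries. The RNAs of the pair thus differed between the cells in opposite directions. Aebp1 RNA was 11.7-fold lower in Lin28a+ MuSCs, a log2 fold change of -3.54 ± 0.045 (SE, n = 2 per group), and Pold2 RNA was 2.44-fold higher, a log2 fold change of 1.29 ± 0.059. The errors given here are those of edgeR and may be too small. DESeq2, another tool for counts, gave larger errors for the same RNA changes, 0.16 for Aebp1 and 0.18 for Pold2. In bulk RNA, fewer cells that express a gene and less of its RNA in each cell cannot be told apart. Of 6 markers of fibro-adipogenic progenitors 3 were listed, with a sum of 124.8 to 124.9 CPM in control and 129.6 CPM in both Lin28a+ libraries, and Dcn, Lum and Dpt were not. Among them Ly6a rose by 1.61 ± 0.11 on the log2 scale (edgeR adjusted p of 0.000112), from 3.93 and 4.58 to 13.5 and 12.5 CPM, and Col3a1, which made up most of the sum, stood at 116 to 121 CPM in all 4 libraries. Pdgfra, below the filter on low counts, stood at 0.229 and 0.235 CPM in the control libraries and at 0.0871 and 0.0906 CPM in the Lin28a+ libraries. Of 6 macrophage and leukocyte markers 5 were listed, with a sum of 3.24 to 4.09 CPM against 3.69 to 5.52 CPM, and Adgre1 was not. The part of such cells in the RNA of Aebp1 and Ctsz was not tested.

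Pold2 had 1 m6A-RIP row, for transcript ENSMUST00000141907. It held 8086 and 5171 counts in the control libraries and 492 and 537 in the Lin28a+ libraries, which is 241 and 229 CPM against 21.8 and 18.2 CPM. The m6A-RIP row was thus low in the cells where Pold2 RNA was high. Its log2 fold change of -3.56 ± 0.077 was close to that of Aebp1 RNA and on the other side of 0 from that of Pold2 RNA. Fitted per gene and set against RNA in a model of all 8 libraries, the m6A of Pold2 relative to its RNA differed by -4.90 ± 0.12 on the log2 scale, while that of Aebp1 relative to its own RNA differed by 0.021 ± 0.086.

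Aebp1 had 6 m6A-RIP rows. The largest held 2986 and 1838 counts in the control libraries and 174 and 220 in the Lin28a+ libraries. Rows 2 to 6 had log2 fold changes between -4.06 and -3.49, close to the RNA of Aebp1. Row 1 was an exception at -0.99 ± 0.29, with 122 and 86 control counts and 30 and 69 Lin28a+ counts, and it shares its transcript name, ENSMUST00000102923, with rows 2 and 3. The Pold2 row held 1.03 and 1.01 times the summed counts of the Aebp1 rows in the control libraries and 1.04 and 0.885 times in the Lin28a+ libraries. In RNA the ratio of Pold2 to Aebp1 went from 0.175 and 0.162 to 5.17 and 4.46. The m6A-RIP ratio of the pair was therefore nearly the same in both kinds of cells while the RNA ratio was not.

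Ctsz encodes cathepsin Z, a lysosomal carboxypeptidase, and Nelfcd encodes a subunit of the negative elongation factor, which holds RNA polymerase II near promoters. Ctsz RNA stood at 448 and 464 CPM in the control libraries and at 37.6 and 35.5 CPM in the Lin28a+ libraries, a log2 fold change of -3.64 ± 0.043. Nelfcd RNA stood at 39.4 and 36.9 CPM in the control libraries and at 41.5 and 39.8 CPM in the Lin28a+ libraries, a log2 fold change of 0.09 ± 0.057. Ctsz RNA was thus 12.5-fold lower in Lin28a+ MuSCs, and the values of Nelfcd differed by little more than the spread between libraries of a group. With DESeq2 the errors were larger, 0.11 for Ctsz RNA and 0.21 for Nelfcd RNA.

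The 3 m6A-RIP rows of Nelfcd did not move together. Row 1, of transcript ENSMUST00000109075, held 511 and 273 control counts and 371 and 460 Lin28a+ counts, a log2 fold change of 0.22 ± 0.14. Row 2, of ENSMUST00000143683, held 415 and 218 control counts and 299 and 376 Lin28a+ counts, a log2 fold change of 0.23 ± 0.14. Row 3, of ENSMUST00000137986, held 7959 and 5295 control counts and 407 and 495 Lin28a+ counts, a log2 fold change of -3.76 ± 0.062. Rows 1 and 2 lay near the RNA of Nelfcd, and row 3 lay near the RNA of Ctsz. Row 3 made up 89.6% and 91.5% of the Nelfcd counts in the control libraries but 37.8% and 37.2% in the Lin28a+ libraries, so the summed m6A of Nelfcd relative to its RNA, -2.64 ± 0.089, was set mainly by that row.

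Ctsz itself carried far less m6A-RIP signal than row 3 of Nelfcd. Its row 1 held 279 and 170 control counts and 4 and 18 Lin28a+ counts, a log2 fold change of -4.23 ± 0.34. Its row 2, of the same transcript, ENSMUST00000016400, held 25 and 12 control counts and 34 and 48 Lin28a+ counts, a log2 fold change of 1.26 ± 0.36. The rows of Ctsz thus differed in opposite directions, row 1 like Ctsz RNA and row 2 unlike the RNA of either gene. Row 3 of Nelfcd held 28.5 and 31.1 times the counts of Ctsz row 1 in the control libraries and 102 and 27.5 times in the Lin28a+ libraries, the value of 102 resting on 4 counts. The m6A of Ctsz relative to its RNA differed by 1.48 ± 0.16. Igf2bp3-RIP and Lin28a-RIP listed no peak under Ctsz or Nelfcd, so the place of these rows on the chromosome was not tested.

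Selp encodes P-selectin, an adhesion receptor for leukocytes that platelets and endothelial cells store in granules, and F5 encodes coagulation factor V, the cofactor of factor Xa, made mainly in liver. In the input, Selp held 8.60 and 9.20 counts in the control libraries and 271 and 251 counts in the Lin28a+ libraries, which is 1.61 and 1.48 CPM against 53.1 and 51.1 CPM. F5 held 3 and 4 control counts and 5 and 3 Lin28a+ counts. Selp RNA was thus 33.1-fold higher in Lin28a+ MuSCs, a log2 fold change of 5.05 ± 0.094, whereas F5 stood near the limit of counting in all 4 libraries. With DESeq2 the error of the Selp change was 0.41. F5 did not pass the filter on low counts, and its log2 fold change of 0.40 ± 0.41 comes from the fit without the filter. It ran from 0.03 to 0.70 with 1 input library left out, and with DESeq2 its error was 1.49.

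The m6A-RIP row of F5, of transcript ENSMUST00000086040, held 8 and 12 control counts and 419 and 513 Lin28a+ counts. The 2 Selp rows held 70 and 50, and 44 and 24, control counts, and 1563 and 1899, and 875 and 1324, Lin28a+ counts. All 3 rows were thus high in Lin28a+ MuSCs. Their log2 fold changes were 5.63 ± 0.25 for F5 and 4.96 ± 0.11 and 5.11 ± 0.15 for Selp. Relative to RNA, the m6A of F5 differed by 5.16 ± 0.83 in the fit without the filter, and that of Selp by -0.10 ± 0.21. The F5 row held 0.0702 and 0.162 times the counts of the Selp rows in the control libraries and 0.172 and 0.159 times in the Lin28a+ libraries, the lowest ratio resting on 8 counts.

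Markers of cells that make P-selectin or factor V were low in these libraries. Of 6 endothelial markers, Pecam1 and Vwf were listed, with a summed level of 0.514 to 0.665 CPM in control and 0.456 to 0.466 CPM in Lin28a+ MuSCs, and Cdh5, Kdr, Tek and Emcn were not listed. Of 6 platelet markers 3 were listed, with a sum of 3.95 to 5.91 CPM in control and 2.47 to 3.73 CPM in Lin28a+ MuSCs, and Pf4, Gp9 and Ppbp were not. None of the 6 hepatocyte markers was listed. Within the platelet sum, Gp1bb went from 3.85 and 2.33 CPM in the control libraries to 0.337 and 1.44 CPM in the Lin28a+ libraries, while Itgb3 stood at 1.31 and 1.04 CPM against 1.47 and 1.63 CPM. The part of such cells in the Selp values was not tested.

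**Figure D1:**
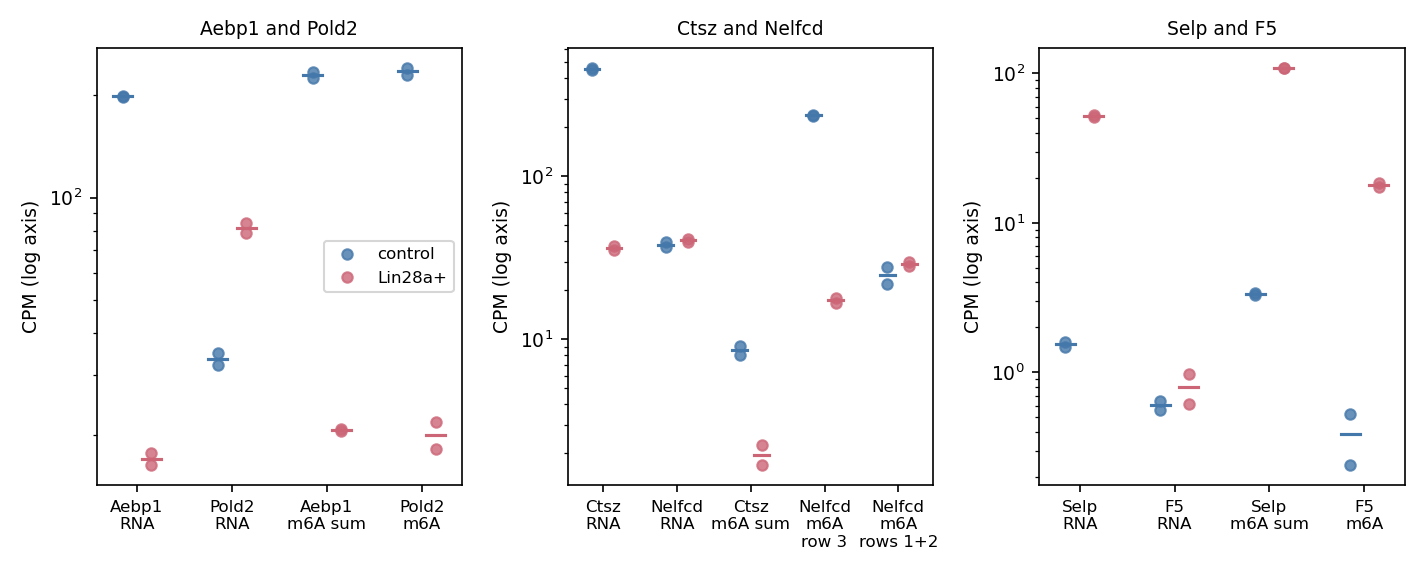
CPM (log axis, TMM-scaled) in each input and m6A-RIP library for the 3 pairs, with control MuSCs in blue and Lin28a+ MuSCs in red. Points are libraries, short lines are means of 2 libraries, and "m6A sum" adds all rows of a gene. Pold2 RNA is higher in the Lin28a+ libraries while its m6A is lower, Nelfcd row 3 stands at 238 and 234 CPM (control) against 18.1 and 16.8 CPM (Lin28a+) while rows 1 and 2 are near each other, and F5 m6A is higher in Lin28a+ libraries while F5 RNA is below 1 CPM in all of them.

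Of the 15 m6A-RIP rows, 10 had a log2 fold change nearer to the RNA of their own gene and 5 nearer to the RNA of the neighbour. The 5 were the row of Pold2, row 3 of Nelfcd, the row of F5, row 1 of Aebp1 and row 2 of Ctsz. The first 3 of these carried 5171 to 8086, 5295 to 7959 and 8 to 12 counts in the control libraries. They belong to the genes for which the pairs were chosen, so the count of 5 is no finding. Row 1 of Aebp1 and row 2 of Ctsz lay apart from both RNAs of their pair. The former, at -0.99 ± 0.29, stood between Aebp1 RNA (-3.54) and Pold2 RNA (1.29). The latter, at 1.26 ± 0.36, stood above Ctsz RNA (-3.64) and Nelfcd RNA (0.09). Summed per gene, the m6A log2 fold change minus that of the neighbour's RNA was -0.08 ± 0.081 for Pold2, 1.10 ± 0.064 for Nelfcd and 0.53 ± 0.28 for F5. Pold2 was thus within its standard error of Aebp1 RNA. F5 lay above Selp RNA by more than the standard error from edgeR, but this depends on the tool. With DESeq2, F5 m6A was 5.59 with an error of 0.37, and Selp RNA was 5.06 with an error of 0.41. Whether F5 m6A departs from Selp RNA was not tested. Nelfcd, with 2 rows near its own RNA, lay between the RNAs of the pair.

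**Figure D2:**
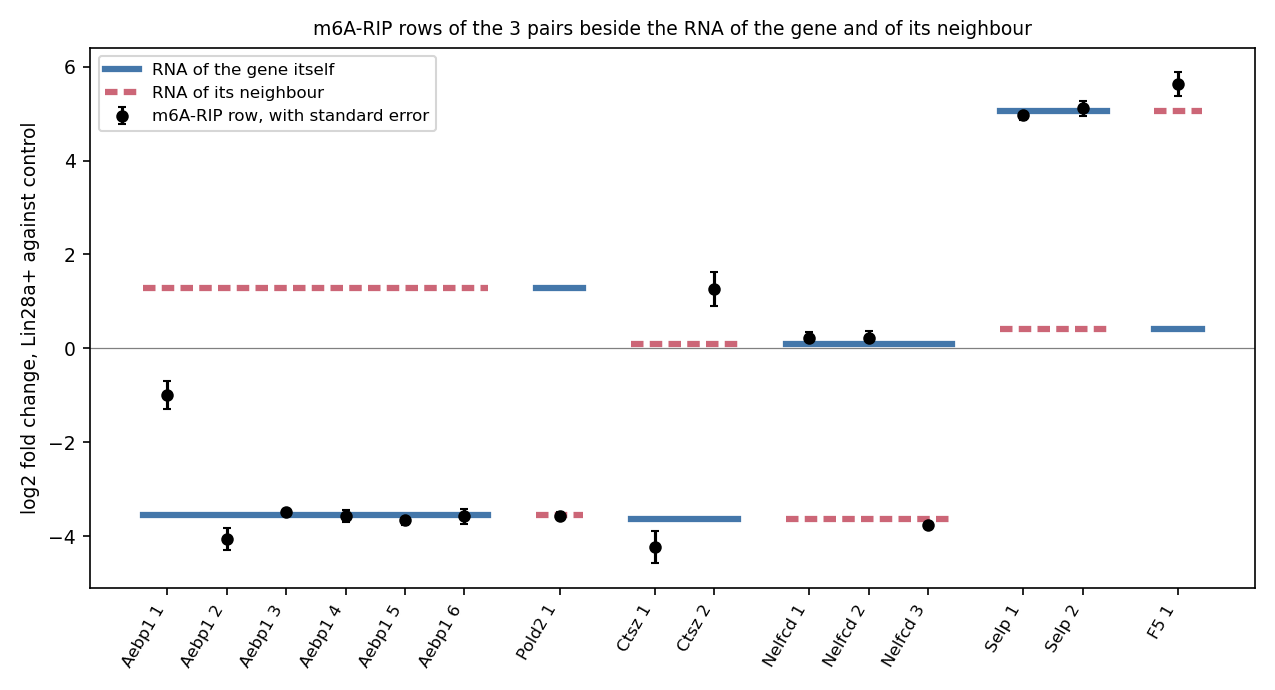
Log2 fold change of Lin28a+ against control MuSCs for each of the 15 m6A-RIP rows (points, with standard errors), beside the RNA of the gene itself (blue line) and of its neighbour (red dashed line). The rows of Pold2 and F5 and row 3 of Nelfcd sit on or near the red dashed line, and rows 2 to 6 of Aebp1, both Selp rows and rows 1 and 2 of Nelfcd sit near the blue line.

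The Igf2bp3-RIP and Lin28a-RIP tables give positions. The transcripts of the Pold2 row, the F5 row and both Selp rows of m6A-RIP also had peaks in one or both of these tables, whereas those of the Aebp1, Nelfcd and Ctsz rows had none. The Igf2bp3-RIP peak listed under Pold2, with the transcript name of the Pold2 m6A-RIP row, lay at chr11:5871276-5871490. None of its 215 bases fell within Pold2, whose 3′ end was 690 bases away, and all of them fell within Aebp1, 758 bases before its end. The Igf2bp3-RIP peak listed under F5, with the transcript name of the F5 m6A-RIP row, lay at chr1:164149482-164149825. None of its 344 bases fell within F5, whose start was 2010 bases away, and all of them fell within Selp, 201 bases before its end.

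The Lin28a-RIP peak listed under F5 lay at chr1:164149418-164150010. All of its 593 bases fell within Selp, 16 bases before its end, and it was 1825 bases away from F5. Both peaks listed under F5 also overlapped Gm16548, as did the last peak listed under Selp in each assay. The part of Gm16548 RNA in these peaks was not tested. The 14 Lin28a-RIP peaks listed under Selp and both Igf2bp3-RIP peaks listed under Selp overlapped Selp. The first Lin28a-RIP peak, chr1:164115122-164115321, crossed the start of the gene with 58 of its 200 bases inside. In all, 3 of the 19 peaks of the 6 genes lay outside the gene they were listed under and inside its neighbour, and the count was 3 as well when an overlap of at least 50% of the peak was asked for. No peak of either table lay within F5 or Pold2 under those names.

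**Figure D3:**
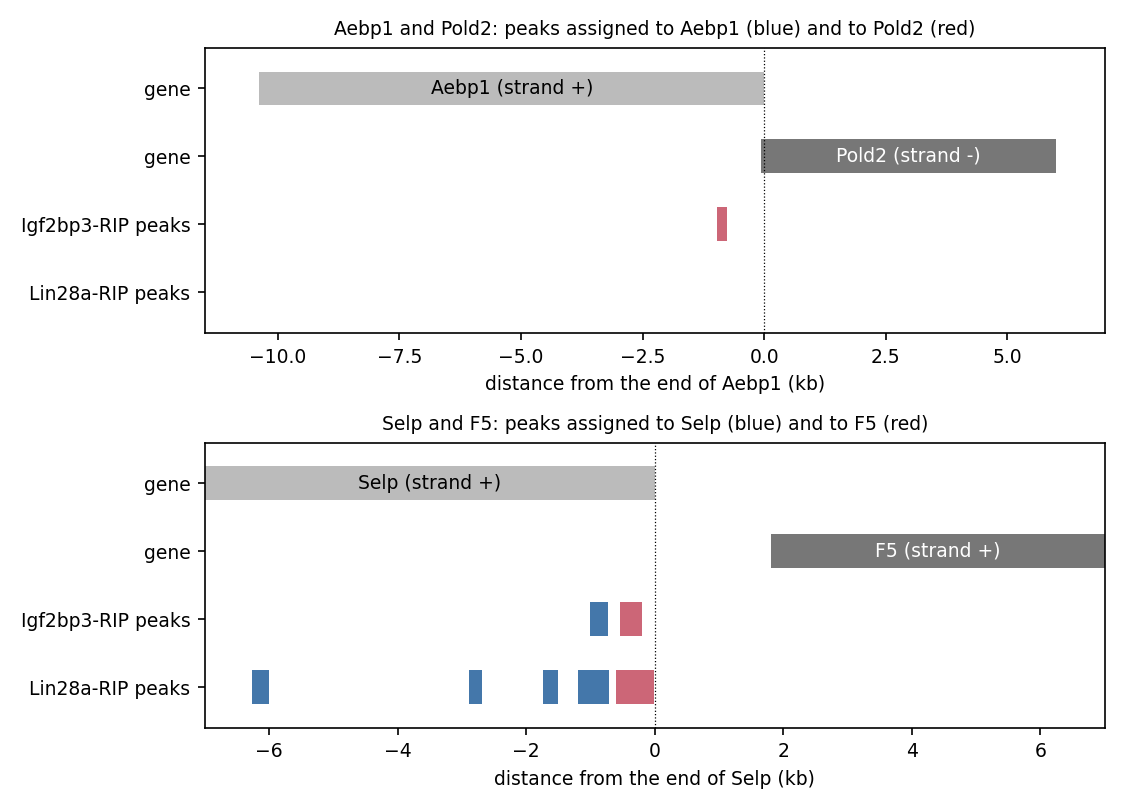
Positions of Igf2bp3-RIP and Lin28a-RIP peaks along the Aebp1 and Pold2 pair (top) and around the end of Selp (bottom), in kb from the end of Aebp1 or Selp. Grey bars are genes, blue peaks are listed under the first gene and red peaks under the second. The red peaks lie to the left of the dotted line, within Aebp1 or Selp, and none lies within Pold2 or F5.

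Peaks outside the gene they were listed under were common in both tables. Of 19445 Igf2bp3-RIP peaks that could be placed, 80.7% overlapped their own gene and 17.8% lay outside it and inside another protein-coding gene. Of 21608 Lin28a-RIP peaks, 86.1% overlapped their own gene and 13.1% lay inside another. The 3 peaks of Pold2 and F5 were among those inside another gene.

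The peaks of Pold2 and F5 were nearer to the start of the gene they were listed under than to that of the gene they lay in. The Pold2 peak was 6766 bases from the start of Pold2 and 9410 from that of Aebp1. The Igf2bp3-RIP peak of F5 was 2010 bases from the start of F5 and 34218 from that of Selp, and the Lin28a-RIP peak of F5 was 1825 and 34154 bases away. Over the tables, the same held for 1859 of 2061 Igf2bp3-RIP peaks (90.2%) and 1441 of 1587 Lin28a-RIP peaks (90.8%) that lay outside their own gene, inside 1 other, with both strands given. Among the peaks listed under Selp, 1 of 2 in Igf2bp3-RIP and 8 of 14 in Lin28a-RIP were nearer to the start of F5. The starts of the transcripts named in the peak tables were not used here.

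The Igf2bp3-RIP libraries took no part in choosing the pairs, and their peaks were tested. This signal was not set against RNA, and the pairs were chosen on RNA and m6A of the same kinds of cells. Since a more abundant transcript yields more fragments, the directions and calls at these peaks are not independent of the RNA of Aebp1 and Selp. At the peak listed under Pold2 the counts were 220 and 1086 in the control replicates and 49 and 108 in the Lin28a+ replicates, which is 24.2 and 39.6 CPM against 3.90 and 3.09 CPM. At the peak listed under F5 the counts were 12 and 61 in the control replicates and 429 and 2974 in the Lin28a+ replicates, which is 1.32 and 2.23 CPM against 34.1 and 85.2 CPM. The directions at these peaks were those of Aebp1 and Selp RNA. The first Selp peak, chr1:164128023-164128336, held 3 and 27 control counts and 299 and 1956 Lin28a+ counts. The second, chr1:164149016-164149300, held 27 and 41 control counts and 740 and 2395 Lin28a+ counts, and it lay within Selp just before the peak listed under F5.

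In edgeR's quasi-likelihood test over all 19465 peaks, the log2 fold change of Igf2bp3-RIP was -3.21 ± 0.38 (SE) for the Pold2 peak, with a Benjamini-Hochberg adjusted p of 0.0519. It was 5.01 ± 0.58 for the F5 peak with an adjusted p of 0.0519 in the same test. The Selp peaks differed by 5.72 ± 0.65 with an adjusted p of 0.0519 and by 4.91 ± 0.43 with an adjusted p of 0.0424. So 1 of the 4 peaks, the second of Selp, passed an adjusted p of 0.05, where 24 of all peaks (0.123%) did. At an unadjusted p under 0.05, all 4 passed, where 1017 of all peaks (5.22%) did. All 4 peaks passed when DESeq2 was used, which called 263 peaks in all, or when library totals replaced the TMM scaling, which called 36. They also passed with any 1 of the 4 libraries left out, but the spread then came from the other group alone and 108 to 193 peaks were called in all, so these fits say nothing about the stability of the calls. The log2 fold change of the F5 peak was then 4.20 without Lin28a+ replicate 2 and 5.52 without either Lin28a+ replicate 1 or control replicate 2. That of the first Selp peak ran from 4.97 without Lin28a+ replicate 2 to 6.92 without control replicate 2, where 3 control counts remained. None of the 3 peaks still tested passed when at least 10 counts in every library were asked for. With the peaks of a gene summed, edgeR gave an adjusted p of 0.00972 for Selp, 0.0491 for Pold2 and 0.0630 for F5, where 13 of 4524 genes (0.287%) were called.

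**Figure D4:**
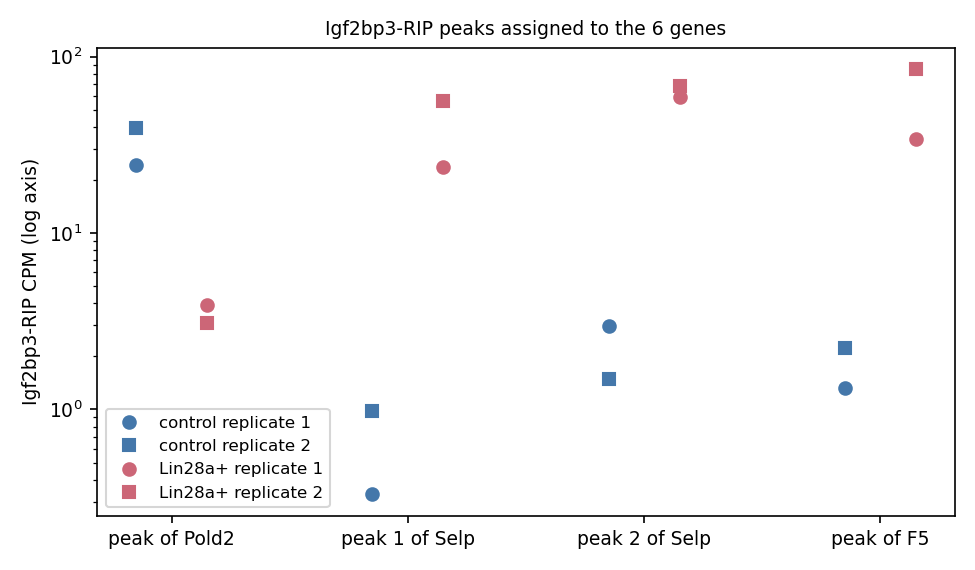
Igf2bp3-RIP CPM (log axis) at the 4 peaks listed under the 6 genes, with control replicates in blue and Lin28a+ replicates in red. Circles are replicate 1 and squares replicate 2. The control replicates of the Pold2 peak stand at 24.2 and 39.6 CPM, above 3.90 and 3.09 CPM, and the 3 other peaks are higher in both Lin28a+ replicates.

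Lin28a-RIP was made in Lin28a+ MuSCs only and allows no comparison of cells. The peak listed under F5 held 2212 and 1965 counts in the replicates, which is 373 and 331 counts per 100 bases. The last peak listed under Selp, chr1:164148826-164149314, held 1777 and 1776 counts, which is 363 counts per 100 bases in both. The peak listed under F5 was therefore about as densely covered as the Selp peak just before it. Over the 14 Selp peaks the coverage ran from 122 to 500 counts per 100 bases in replicate 1.

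Genes on the outer sides of the pairs had m6A close to their own RNA where they were measured. Polm, a DNA polymerase on the far side of Aebp1, had an RNA log2 fold change of 0.24 ± 0.15 and an m6A log2 fold change of 0.05 ± 0.15. Gnas, the nearest protein-coding gene beyond Nelfcd, had -0.09 ± 0.026 in RNA and -0.14 ± 0.037 in m6A. Slc19a2, a thiamine transporter and the nearest protein-coding gene beyond F5, had -0.95 ± 0.058 in RNA and -0.93 ± 0.092 in m6A. Their m6A relative to RNA gave Benjamini-Hochberg adjusted p-values of 0.903, 0.790 and 0.997 in edgeR's quasi-likelihood test. Myl7, Tubb1, Rpl30-ps5, Gm30189 and Gm51287 had no row in either table.

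Across the genome, the m6A of a gene was nearer to the RNA of an adjacent gene than to its own RNA in 258 of 1992 cases (12.95%) in which the RNA changes of the genes differed by at least 1 on the log2 scale. Pold2 beside Aebp1 and Nelfcd beside Ctsz were among these cases, and Aebp1 and Ctsz, read the other way round, were not. F5 was no case because its RNA did not pass the filter. The share was 17.6% (32 of 182) where the spans of the genes overlapped, as in the pairs of Pold2 and Nelfcd. It was 21.7% (102 of 471) at gaps of at most 5000 bases and 9.26% (124 of 1339) at larger gaps. With RNA changes at least 2 apart, these shares were 22.2% for overlapping spans, 21.4% at close gaps and 9.40% at larger gaps. With at least 10 counts in every library they were 18.7%, 18.2% and 8.14%. The order of overlapping spans and close gaps thus depended on the setting, while larger gaps had the lowest share in each.

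The m6A-RIP rows were also divided by the positions of the Igf2bp3-RIP and Lin28a-RIP peaks of their transcripts. For transcripts whose peaks all lay outside their own gene and inside 1 other, as those of the Pold2 transcript did, 120 of 175 rows (68.6%) had an m6A change nearer to the RNA of the gene in which the peaks lay. These rows came from 88 genes, and without Pold2 the count was 119 of 174 (68.4%). For transcripts whose peaks all lay inside their own gene and no other, 28 of 780 rows (3.59%) were nearer to the RNA of the nearest gene. When the RNA changes had to differ by at least 2, the shares were 57.1% (16 of 28) and 3.75% (6 of 160). These counts were added after the values of the pairs were seen and carry no test, and rows of 1 gene are not independent.

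For Igf2bp3-RIP peaks themselves the shares depended on the limit. With RNA changes at least 1 apart, 201 of 434 peaks outside their own gene (46.3%) had a log2 fold change nearer to the RNA of the gene they lay in, against 892 of 2195 peaks (40.6%) inside their own gene that were nearer to the RNA of the nearest gene. With RNA changes at least 2 apart the shares were 73.1% (57 of 78) and 6.44% (25 of 388). The Pold2 peak was among those nearer to the gene they lay in, at both limits.

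**Figure D5:**
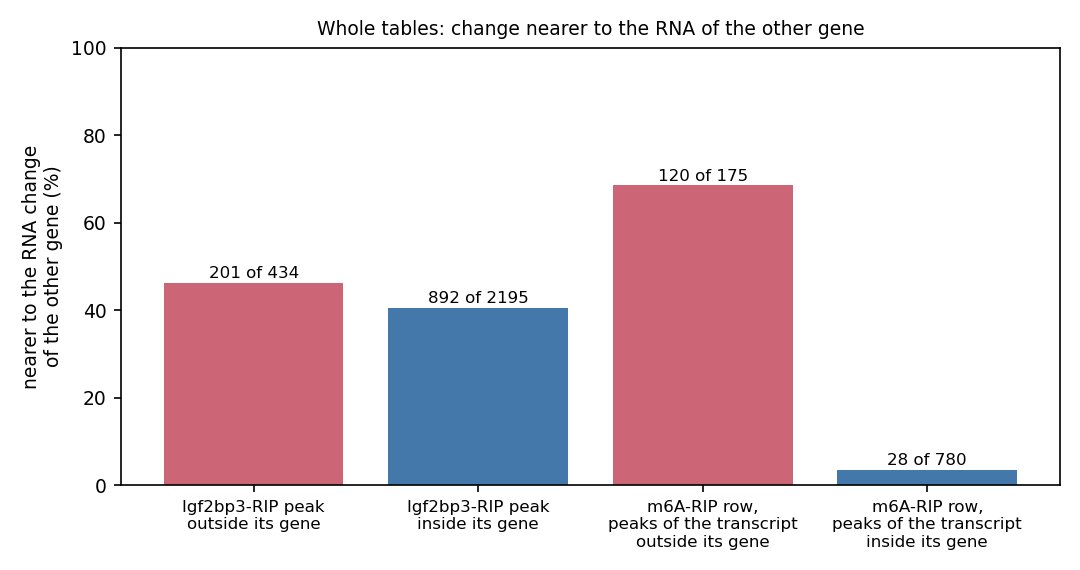
Percent of Igf2bp3-RIP peaks and m6A-RIP rows whose change was nearer to the RNA change of another gene than to that of the gene they are listed under, where the RNA changes differ by at least 1 on the log2 scale. Red bars are peaks or transcripts outside their own gene, blue bars those inside it, and the counts stand above the bars without an error. The m6A-RIP bars stand at 68.6% and 3.59%, the Igf2bp3-RIP bars at 46.3% and 40.6%.

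The genes most like Pold2, Nelfcd and F5 over the 8 input and m6A-RIP libraries were found by Euclidean distance of log2 CPM from the control mean, among 7942 genes. Nearest to Pold2 were Ube2t, a ubiquitin-conjugating enzyme of DNA crosslink repair, at a distance of 1.04, Fah, the last enzyme of tyrosine breakdown, at 1.49, and Trp53i11 at 2.14. Nearest to Nelfcd were Coro7, a Golgi-bound coronin, at 0.372, Kndc1 at 0.733 and Mfrp at 0.742. Nearest to F5 were Mocs1, of molybdenum cofactor synthesis, at 0.544, Pde6h at 1.55 and Ppp1r13b at 2.17. These genes were chosen for m6A that departs from RNA, so the departure itself is no finding about them.

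Several of these genes had an adjacent gene with an RNA change like their m6A. Ube2t had an m6A log2 fold change of -4.33 and an RNA log2 fold change of 0.65, and Lgr6, 9119 bases away and facing it, had -3.82 in RNA. Coro7 had -2.36 in m6A and 0.12 in RNA, and Vasn, whose span shares 11222 bases with that of Coro7, had -2.05 in RNA. Mocs1 had 4.25 in m6A and 0.07 in RNA, and Daam2, 586 bases away with its 3′ end facing that of Mocs1, had 3.61 in RNA. Mfrp had -3.12 in m6A with RNA below the filter, and C1qtnf5, which shares 7418 bases with it, had -3.18 in RNA. The neighbours on the other side of Ube2t, Coro7 and Mfrp did not match. Ppp1r12b, at 6601 bases from Ube2t and so nearer than Lgr6, had -0.43 in RNA. Pam16, beside Coro7, had -0.15, and Rnf26, beside Mfrp, had 0.60. Ppp1r13b was an exception, with 3.94 in m6A, -0.12 in its own RNA and 0.27 and 0.41 in the RNA of its neighbours.

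Partners of the 6 genes were read from lists. Of 9 genes of DNA polymerase delta, its clamp and clamp loader, which work with Pold2, 6 rose in RNA and 0 fell by edgeR's quasi-likelihood test (adjusted p under 0.05), where 28.1% of the 11323 genes tested rose and 28.7% fell. The median log2 fold change of the list was 0.68, beside 0.0089 over all genes. Rfc4, a subunit of the clamp loader, rose by 1.57 ± 0.061 on the log2 scale with an adjusted p of 2.05e-05 in edgeR. In m6A relative to RNA, 1 of 7 genes fell and 0 rose, where 7.34% of the 7408 genes tested were called, 4% lower and 3.35% higher.

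The gene that fell was Rfc4, which fell by 2.47 ± 0.11 on the log2 scale with an adjusted p of 3.85e-07 in edgeR. Its m6A log2 fold change was -0.90. Rfc4 shares 185 bases with Eif4a2, a translation initiation helicase on the opposite strand, with their 3′ ends facing each other as in Aebp1 and Pold2. Eif4a2 RNA had a log2 fold change of -0.71. Pold2 and Rfc4 thus were alike in RNA that was higher in Lin28a+ MuSCs, m6A that was lower, and a convergent neighbour with lower RNA.

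Of 10 NELF and pause-release factors, which work with Nelfcd, 4 rose and 3 fell in RNA, which is near the 56.8% called over all genes, and 0 of 9 passed the edgeR test in m6A relative to RNA, 0 of them at an unadjusted p under 0.05 either. Nelfe, a subunit of the same complex, rose by 0.82 ± 0.061 (edgeR adjusted p of 0.000157), and the m6A of the elongation factor Supt5 relative to its RNA was -0.13 ± 0.062 (edgeR adjusted p of 0.413). Of 8 cathepsins tested, 1 rose and 5 fell in RNA, beside 28.1% and 28.7% over all genes, among them the aspartic protease Ctsd, which fell by 0.87 ± 0.023 (edgeR adjusted p of 6.93e-06). In m6A relative to RNA, where 7.34% of all genes were called, 1 of 6 cathepsins rose, Ctsa, the lysosomal protective protein, by 1.16 ± 0.17 (edgeR adjusted p of 0.00162). The spans of Ctsa and Pltp share 1515 bases, and those of Ctsa and Neurl2 share 725, with RNA log2 fold changes of -0.78 and 0.17 for the neighbours, -0.40 for Ctsa itself and 0.77 for Ctsa m6A. Ctsa m6A was thus higher than the RNA of the gene and of both neighbours.

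Among 6 coagulation and anticoagulant genes tested, 2 rose and 3 fell in RNA, beside 28.1% and 28.7% over all genes, and these shares apply to the selectin and carboxypeptidase lists as well. Tfpi, the tissue factor pathway inhibitor, rose by 3.45 ± 0.16 (edgeR adjusted p of 3.58e-05), and its m6A relative to RNA was -0.70 ± 0.51 (edgeR adjusted p of 0.644). Of 2 genes tested among selectins and their ligands, Cd24a fell by 1.26 ± 0.053 in RNA (edgeR adjusted p of 2.55e-05), and the m6A of Podxl relative to its RNA was -0.29 ± 0.25 (edgeR adjusted p of 0.734). All 3 carboxypeptidase-like genes tested fell in RNA, as Aebp1 was lower, with Cpe, the prohormone-processing carboxypeptidase E, at -1.57 ± 0.036 (edgeR adjusted p of 5.22e-06). No gene of these last 3 lists passed the edgeR test in m6A relative to RNA among 3, 2 and 2 tested, at an adjusted or unadjusted p under 0.05. Over these partner lists edgeR called 28 genes in RNA and DESeq2 called 18. In m6A relative to RNA 2 genes were called by edgeR, 2 by DESeq2, and 4 by edgeR with library totals in place of the TMM scaling.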

How the data were processed

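Reads were trimmed, aligned with HISAT2 2.0.4 and peaks called with MACS2 1.4.3, as the submitters' processing notes and the methods give it. The methods name a human build and the labels also mm10. Peak positions were compared with RefSeq gene spans of GRCm38.p6. The counter, its strand setting, the peak threshold and pooling are not given in the sources used here. The deposited input table holds estimated counts per gene with decimals, which were rounded. The deposited m6A-RIP, Igf2bp3-RIP and Lin28a-RIP tables hold counts per peak or row, and m6A-RIP rows carry no position. Strands came from the RefSeq promoter table and were not given there for Nelfcd.

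R 4.3.3 and edgeR 4.0.16 (quasi-likelihood test, TMM scaling, filterByExpr, full table totals) gave log2 fold changes and Benjamini-Hochberg adjusted p-values over all features. An interaction of cells and assay over 8 libraries gave m6A relative to RNA, with TMM within each assay. DESeq2 1.42.0, other scalings and filters, single libraries left out, and a replicate block for Igf2bp3-RIP were alternatives.

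The genes and lists were chosen with earlier results of these data known. Besides the 6 genes, the text names the gene on the outer side of each, the 3 genes most like Pold2, Nelfcd and F5, and in each list the gene of lowest p in RNA and in m6A relative to RNA. Where an outer gene was not protein-coding, the nearest protein-coding gene was added. A gene that this rule names is not reported here. Neighbours of the most alike and of the called partner genes were looked up after their values were seen.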

Additional observations from a re-analysis of the deposited data

How the results depend on the processing

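The directions of RNA, m6A and m6A relative to RNA of Pold2, Nelfcd (rows summed) and F5 were kept under every alternative in which the gene was fitted. F5 dropped out when at least 10 counts in every library were asked for. The RNA changes of Nelfcd and F5 were smaller than their DESeq2 errors, 0.084 with 0.21 and 0.41 with 1.49, so their direction is not settled. Row 1 and row 2 of Nelfcd on their own gave 0.22 and 0.23, against -2.54 for the sum, and row 2 of Ctsz gave 1.26, against -2.16. The m6A of Selp relative to RNA, -0.10 with an error of 0.21, ran from -0.21 to 0.022 with 1 control input library left out. With library totals alone, Nelfcd m6A relative to RNA was -2.77. That of F5 ran from 4.59 to 5.73 with 1 library left out, the extremes coming from the control m6A-RIP libraries, which hold 8 and 12 counts. Of the 4 Igf2bp3-RIP peaks, 4 passed with library totals, with DESeq2 and with any of the 4 libraries left out, 0 passed with at least 10 counts in every library, where 3 were tested, and 2 genes passed with peaks summed. Over all peaks the calls were 24, 36 with library totals, 263 with DESeq2, 0 with at least 10 counts, and 108 to 193 with 1 library left out, where the lone library is assumed to vary like the other group. With a replicate block 4 peaks passed and 1988 were called in all. The labels do not say that a replicate number marks a shared batch, and with 2 pairs a correlation of 0.703 between the replicate differences does not settle whether the numbers pair the libraries. Partner genes called in RNA numbered 28, and 18 with DESeq2, and those called in m6A relative to RNA 2, and 4 with library totals. The share of adjacent genes nearer to the neighbour was 12.95%, and 11.5% with at least 10 counts in every library. The cause of these changes was not tested. Depth limits F5 RNA (3 to 5 counts), the control counts of the F5 row and the Lin28a+ counts of Ctsz row 1.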

Other observations

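Across the genome, 33 of the 1755 genes compared with an adjacent gene had an m6A log2 fold change within 0.5 of the RNA of that neighbour and at least 2 from their own RNA, in 41 cases of 1992. In 7 of these cases the spans overlapped, and the genes were Coro7, Mmp19, Pold2, Rfc4, Slc9a7, Sptb and Zfp599. The following examples were chosen after their values were seen. Isyna1, the enzyme that makes inositol phosphate from glucose phosphate, had an RNA log2 fold change of -5.40 and an m6A log2 fold change of 0.25, and Ell, an elongation factor 1622 bases away on the same strand, had 0.24 in RNA. Dut, the dUTPase that keeps uracil out of DNA, had 1.43 in RNA and -0.91 in m6A, and Fbn1, the fibrillin gene facing it at 41544 bases, had -0.98 in RNA. Mrpl35, a protein of the mitochondrial ribosome, had 0.79 in RNA and -1.60 in m6A, and Reep1, facing it at 2286 bases, had -1.23 in RNA. Nearness in change alone did not require nearness on the chromosome, since Cntnap5a, with -4.25 in RNA and 0.40 in m6A, is matched with Dsel (0.20 in RNA) at 3819684 bases. Over all genes the median absolute RNA log2 fold change was 0.40. An m6A change near 0, as in Isyna1, therefore lies within 0.5 of the RNA of many genes. Matches with genes that are not adjacent were not counted.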
